A study of Mus musculus with 4 samples.

Results

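The receptors for the constant part of IgG (Fcgr1, Fcgr2b, Fcgr3 and Fcgr4), the signalling chains Fcer1g and Tyrobp and the kinase Syk were examined in 2 kinds of lymphoid-primed multipotent progenitors (LMPP). LMPP are early bone marrow cells that can still form lymphoid and myeloid cells. The 7 genes were found by matching the RefSeq accession of each non-control array probe to a gene symbol, which gave 1 probe for each of them among 37140 genes and unnamed transcripts on the array. RNA of all 4 samples came from mice carrying an IRF8-GFP knock-in, in which green fluorescence reports IRF8, a transcription factor of monocytes and dendritic cells. Cells without lineage markers, IL-7R and CD150 but with Sca-1, CD117, CD34 and CD135 were sorted into an IRF8-GFP negative group (2 arrays) and an IRF8-GFP positive group (2 arrays). Both groups carry the reporter and neither was treated. The age, sex and number of the mice, and whether a sample pooled animals, are not given in the sources used here. Nothing states that the 2 samples of a group came from separate animals, so the p-values reflect only how these arrays vary, and that variation may be technical.

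Activating Fc gamma receptors bind IgG on a coated target but have little signalling sequence of their own. They are held at the surface by the Fc receptor gamma chain, encoded by Fcer1g, whose ITAM is phosphorylated by Src family kinases and then docks the tandem SH2 domains of Syk. DAP12, the product of Tyrobp, is a second ITAM chain that serves receptors of the TREM, CD300 and related families. Fcgr2b is the exception among the receptors, since it carries an inhibitory motif (ITIM) in its own tail and recruits the phosphatase SHIP-1. Mature blood cells that express several of these genes include monocytes, macrophages, neutrophils, mast cells and natural killer cells, while B cells express Fcgr2b alone among the receptors.

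Of the 7 genes, 6 were bright enough to test, and all 6 were well above background on all 4 arrays. Tyrobp, Fcer1g, Fcgr3 and Fcgr2b were higher in IRF8-GFP positive LMPP, by 2.84-fold, 2.14-fold, 1.82-fold and 1.78-fold. Fcgr4 and Syk did not pass the test, and Fcgr1 lay near background. The background is large here: of the 22362 genes and unnamed transcripts tested, 38.5% were called higher in the positive group and 21.4% lower (59.9% in all; limma, adjusted p under 0.05), against 4 higher and 0 lower among the 6. The counts behind those shares were 8611 higher and 4779 lower, and they fell to 4760 and 2852 without the first negative array and to 4808 and 2915 without the second. The median difference of the 6 was 0.85 on the log2 scale, against 0.16 over everything tested. The samples are bulk RNA, so a change in the number of cells of a kind and a change in RNA per cell cannot be told apart.

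The scale used throughout is log2 of the background-subtracted probe signal minus the array's 75th percentile, so 0 marks the signal at that percentile. It allows a gene to be compared between arrays, and it does not rank one gene's abundance against another's. Irf8, the gene that the sort reports, was at 1.64 and 1.60 on the negative arrays and at 5.13 and 5.22 on the positive arrays. The difference was 3.55 (SE 0.06, adjusted p = 0.000802), or 11.7-fold, in the direction of the labels. Arrays of a group correlated at 0.998 and 0.997 over the tested features and arrays of different groups at 0.980 to 0.981. The positive arrays were dimmer, with 75th percentiles of 318 and 414 against 438 and 543, and 49.3% and 50.4% of probes well above background against 56.0% and 56.3%.

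Tyrobp, the DAP12 chain, showed the largest difference of the members that were tested. Its scaled log2 level was 3.66 on both negative arrays and 5.20 and 5.14 on the positive ones. The positive arrays were both high and nowhere near the negative pair. The fitted difference was 1.51 (SE 0.06, 95% interval 1.35 to 1.67, adjusted p = 0.00127). The same was visible before scaling, since the processed signals of 11661 and 14606 on the positive arrays exceeded the 5526 and 6879 of the negative arrays although the positive arrays were dimmer as a whole. When the tested features were divided by mean signal into 4 bins of equal size, Tyrobp fell in the brightest bin, and its difference reached or exceeded that of 99.7% of the bin.

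Fcer1g, the chain that the activating Fc gamma receptors share with the high-affinity IgE receptor, moved in the same direction. Its scaled log2 level was 2.76 and 2.82 on the negative arrays and 3.87 and 3.91 on the positive arrays. The groups did not overlap, and the gap between them was far wider than the spread within either. The difference was 1.1 (SE 0.06, 95% interval 0.93 to 1.26, adjusted p = 0.00163). Processed signals were 2969 and 3836 against 4638 and 6205, so Fcer1g too was higher before scaling. Its difference reached or exceeded that of 98.5% of the brightest bin.

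**Figure D1:**
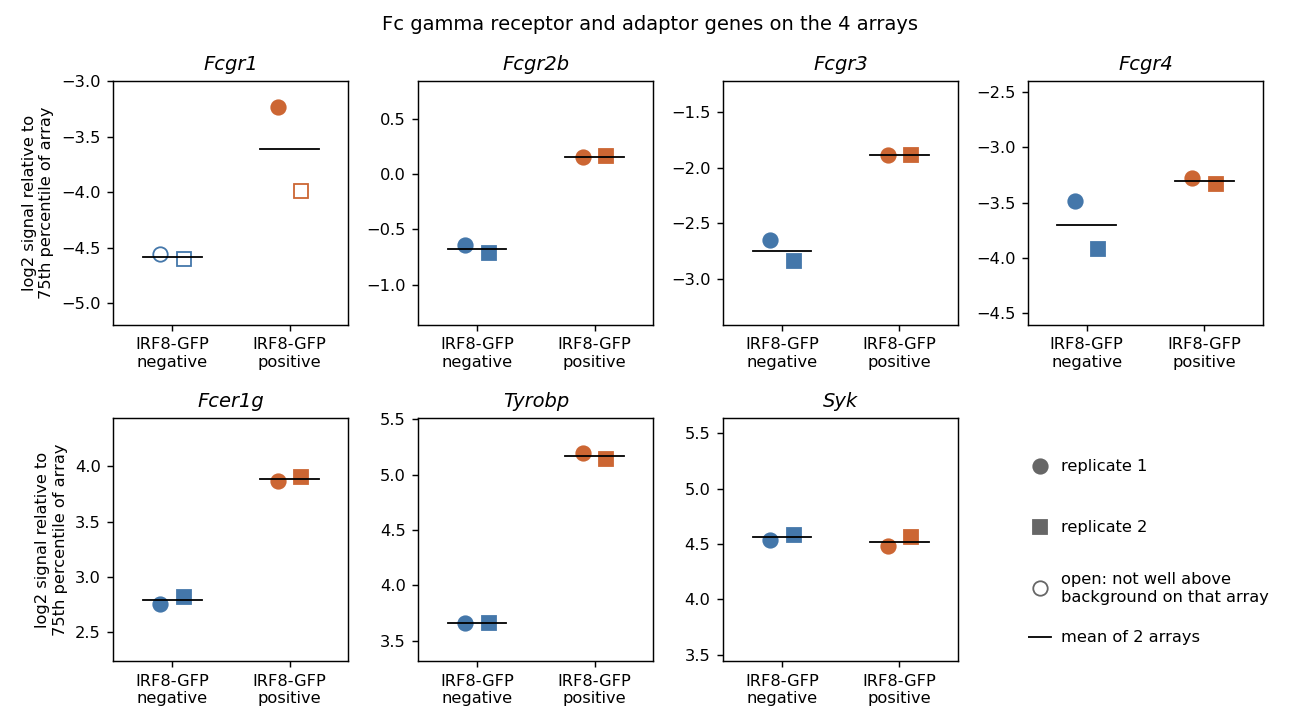
Scaled log2 signal (relative to the array's 75th percentile) of the 7 genes on each of the 4 arrays, 1 panel per gene, with a line at the mean of the 2 arrays of a group and open symbols where the probe was not well above background. Tyrobp, Fcer1g, Fcgr3 and Fcgr2b lie higher on both positive arrays, Syk overlaps between the groups, and Fcgr1 was well above background on 1 array only.

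The promoters of 4 members on chromosome 1 are shown because the sort separates cells by IRF8, which binds DNA with PU.1 or a relative at a composite of an Ets and an IRF half-site. The windows run from 250 bases before to 50 after the annotated RefSeq start (GRCm38.p6), written 5′ to 3′ along the gene's strand, with motif matches in capitals. The motifs searched on both strands were the Ets-IRF composite GGAANNGAAA, an interferon response type GAAANNGAAA, and the PU.1 core GAGGAA. Fcgr2b has a match to the composite, Fcgr4 to the interferon type and the core, Fcgr3 to the core, and Fcer1g to none.
Fcgr2b, chr1:170976022-170976321, minus strand: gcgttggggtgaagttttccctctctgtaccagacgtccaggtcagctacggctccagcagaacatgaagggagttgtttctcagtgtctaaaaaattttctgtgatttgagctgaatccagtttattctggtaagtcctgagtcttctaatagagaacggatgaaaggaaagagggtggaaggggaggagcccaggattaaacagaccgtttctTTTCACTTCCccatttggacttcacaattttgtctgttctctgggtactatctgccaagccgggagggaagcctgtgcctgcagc
Fcgr4, chr1:171018676-171018975, plus strand: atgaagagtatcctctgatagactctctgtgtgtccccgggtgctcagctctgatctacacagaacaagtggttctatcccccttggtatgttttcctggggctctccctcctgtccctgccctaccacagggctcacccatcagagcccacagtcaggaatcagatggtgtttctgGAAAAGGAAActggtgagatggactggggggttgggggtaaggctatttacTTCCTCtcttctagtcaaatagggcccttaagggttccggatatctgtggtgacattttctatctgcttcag
Fcgr3, chr1:171059354-171059653, minus strand: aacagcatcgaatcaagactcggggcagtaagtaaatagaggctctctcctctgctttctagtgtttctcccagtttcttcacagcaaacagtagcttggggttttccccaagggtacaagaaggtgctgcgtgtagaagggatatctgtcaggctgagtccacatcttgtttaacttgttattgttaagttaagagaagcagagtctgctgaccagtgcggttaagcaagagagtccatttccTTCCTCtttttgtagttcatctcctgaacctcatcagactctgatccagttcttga
Fcer1g, chr1:171234300-171234599, minus strand: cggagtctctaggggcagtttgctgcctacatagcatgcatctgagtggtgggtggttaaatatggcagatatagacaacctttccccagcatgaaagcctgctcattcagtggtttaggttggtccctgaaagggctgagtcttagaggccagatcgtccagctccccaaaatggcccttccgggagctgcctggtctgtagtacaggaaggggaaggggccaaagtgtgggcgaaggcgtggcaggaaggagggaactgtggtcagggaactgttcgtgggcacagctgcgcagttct
The composite of Fcgr2b begins 35 bases before the start, on the minus strand relative to the gene. Such a match was present in 2.72% of 32841 RefSeq promoter windows of this length. The interferon type of Fcgr4, found in 3.44% of windows, lies 73 bases before the start, and its PU.1 core 22 bases before. The core of Fcgr3 lies 6 bases before the start, and 28.3% of windows hold that motif. The matches shown do not overlap one another. They describe letters in a window and not binding, and a window with no match says nothing of the factor. The window of Fcgr1 holds a PU.1 core 55 bases before the start. Of the windows of Syk, which has annotated starts at separate positions, 1 holds a core 9 bases before the start. Tyrobp is named only.

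Fcgr3 encodes an activating low-affinity receptor that cannot signal without the Fcer1g chain. It was at -2.66 and -2.84 on the negative arrays and at -1.89 and -1.88 on the positive arrays. Both positive arrays were higher than both negative arrays. The difference was 0.86 (SE 0.08, 95% interval 0.63 to 1.1, adjusted p = 0.00311). Fcgr3 lies in the dimmest of the 4 bins, where 17.8% were called higher and 26% lower. Its processed signals of 69.5 and 75.7 against 85.9 and 112.5 did not overlap either, and the scanner's own error for these spots was 12.0% to 12.7%.

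Fcgr2b is the inhibitory receptor, and the only member measured by 10 spots on each array. The spots of an array differed by a coefficient of variation of 3.77% to 6.28%. The mean over spots was -0.64 and -0.71 on the negative arrays and 0.15 and 0.16 on the positive arrays. The groups stood apart, and the 2 positive arrays were almost equal. The difference was 0.83 (SE 0.06, 95% interval 0.67 to 1.0, adjusted p = 0.00204). Fcgr2b lies in the next bin of brightness, where 24.5% of features were called higher and 31.8% lower.

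The inhibitory receptor thus rose beside an activating one. The log2 difference of Fcgr3 exceeded that of Fcgr2b by 0.03 (exact permutation p = 1 over the arrays), which does not show that they change alike. In all, 8 pairs of members were compared in this way. The other 7 gave an exact two-sided p of 0.33, the smallest that 2 against 2 arrays allow (0.381 after Benjamini-Hochberg adjustment over the 8). Among them the difference of Fcer1g exceeded that of Fcgr3 by 0.23, and that of Tyrobp exceeded that of Fcer1g by 0.41. Probe sequences were not used here, so cross-hybridisation between the closely related Fcgr2b, Fcgr3 and Fcgr4 was not tested.

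Fcgr4 encodes an activating receptor of intermediate affinity. Its scaled log2 level was -3.48 and -3.92 on the negative arrays and -3.28 and -3.33 on the positive arrays. After scaling the groups did not overlap, but the first negative array lay only 0.15 below the nearer positive one, and the negative arrays were far apart from each other. The difference of 0.40 (SE 0.16, 95% interval -0.05 to 0.85, adjusted p = 0.101) did not pass the test. The processed signals before scaling, 39.1 and 35.9 against 32.8 and 41.1, overlapped. Without the first negative array the difference was 0.62 with an adjusted p of 0.0321, and without the second it was 0.18 with an adjusted p of 0.198. With normexp background correction and all 4 arrays it was 0.47 with an adjusted p of 0.00781. Groups did not overlap for 82.2% of tested features (52.4% with the positive arrays above and 29.8% with the negative arrays above), against 5 of the 6 members, all with the positive arrays above.

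Fcgr1 encodes the high-affinity receptor, which marks monocytes and macrophages in mature tissue. It was not well above background on either negative array and was so on 1 of 2 positive arrays, so it was not tested. Its scaled log2 level was -4.56 and -4.60 on the negative arrays and -3.23 and -3.99 on the positive arrays. The processed signals were 18.6, 22.3, 33.8 and 26.1 in that order, with a scanner error between 17.9% and 26.7%. Without the filter on dim probes the difference of 0.97 had an adjusted p of 0.0779. A difference in Fcgr1 was not detectable at this signal.

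Syk, the kinase that reads the phosphorylated ITAM, was bright on every array and did not pass the test under the 75th percentile scaling. It was at 4.54 and 4.58 on the negative arrays and at 4.48 and 4.56 on the positive arrays. The groups overlapped. The difference was -0.04 (SE 0.06, 95% interval -0.21 to 0.13, adjusted p = 0.605), an interval that lies below those of the 4 members called higher. Syk lay 0.20 below the median of everything tested and 0.43 below the median of the brightest bin, of which 13.6% were as low or lower. The change of Tyrobp exceeded that of Syk by 1.55 and the change of Fcer1g exceeded it by 1.14.

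**Figure D2:**
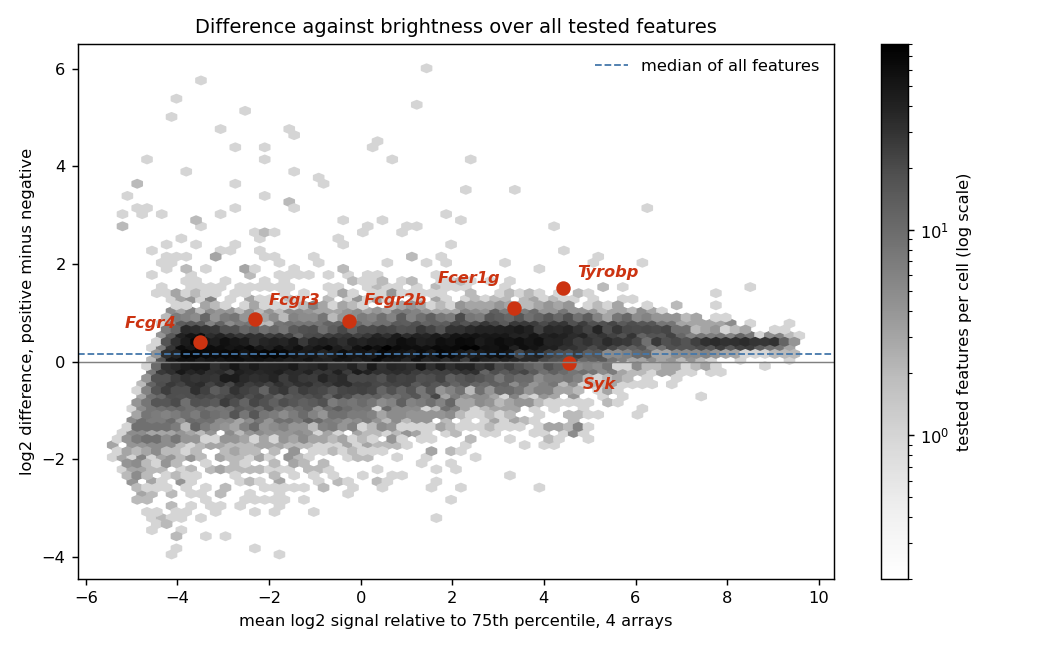
Log2 difference, positive minus negative, of every tested feature against its mean scaled log2 signal, shaded by the number of features per cell, with the tested members as named points and a dashed line at the median of all. The median difference rises with brightness, from -0.02 in the dimmest of 4 bins to 0.38 in the brightest, and Tyrobp and Fcer1g lie above most features of their brightness whereas Syk lies below most.

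Since the median difference rose with brightness, the members' differences were compared across ways of scaling the arrays. In the brightest bin 67.1% of features were called higher and 7.85% lower, and in the bin below it, which holds no member, 44.6% and 19.8%. Tyrobp, Fcer1g, Fcgr3 and Fcgr2b were higher and past the threshold under all 19 alternatives, with log2 differences of 1.15 to 1.54, 0.79 to 1.13, 0.56 to 0.98 and 0.53 to 0.87. Among the 19, the other filters, eBayes trends, probe rules and the replicate block cannot alter a tested member's difference, only its p-value. Syk did not keep its call. Under quantile normalization, under cyclic loess and in the matrix the authors deposited it was lower by -0.40, -0.40 and -0.41 (adjusted p = 0.00945, 0.0131 and 0.00911). Under spike-in scaling and under centring on probes above background it was lower by -0.35 and -0.27 (adjusted p = 0.0103 and 0.0231). Under the 75th percentile and under centring on the tested genes it did not pass, so no direction can be given for Syk. Those 7 scalings place the median of everything tested between -0.14 and 0.16.

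**Figure D3:**
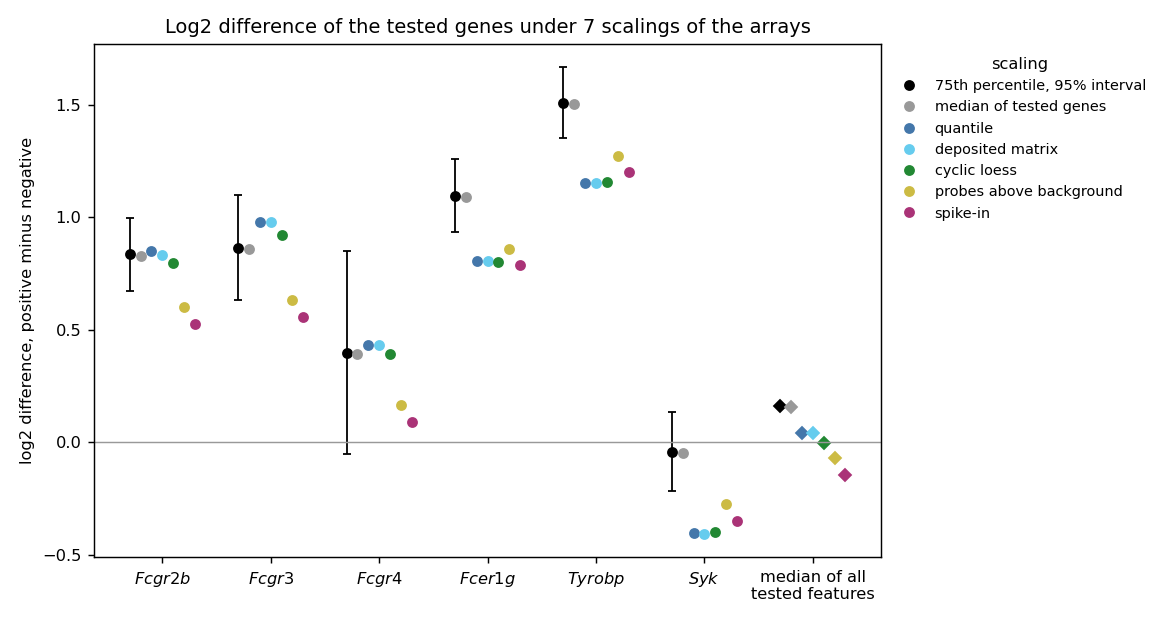
Log2 difference of each tested member, positive minus negative, under 7 ways of scaling the 4 arrays, with the 95% interval of the fit under the 75th percentile scaling and diamonds for the median of everything tested. Tyrobp, Fcer1g, Fcgr3 and Fcgr2b stay well above 0, Fcgr4 falls towards 0 under 2 scalings, and Syk lies between -0.27 and -0.41 under 5 of the 7.

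Fcgr2b, Fcgr4 and Fcgr3 follow one another on mouse chromosome 1 in the GRCm38.p6 annotation, and Fcer1g lies farther along the same stretch. Fcgr1 is on chromosome 3, Tyrobp on 7 and Syk on 13. Between Fcgr3 and Fcer1g, 7 other genes were tested. Of these, Sdhc, a subunit of respiratory complex II, was higher by 0.63 (adjusted p = 0.00313). Pcp4l1 and the nuclear receptor gene Nr1i3 were lower, by -0.78 (adjusted p = 0.00227) and -0.99 (adjusted p = 0.0485). Nr1i3 lost its call under 8 of 18 alternatives, with -0.16 under normexp. The others did not pass, among them Cfap126, Tomm40l and Apoa2. Over everything tested, 38.5% were higher and 21.4% lower, so mixed calls among 7 genes say nothing particular about this stretch.

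Further genes of the pathway were read from 9 lists, 178 genes beyond the members, of which 137 were tested. Of these, 51 were higher, 30 lower and 56 neither, with a median log2 difference of 0.10, against 38.5% higher and 21.4% lower in the background. The count of 51 fell to 24 without the first negative array and to 30 without the second. It depended on scaling too, with 20 higher and 55 lower under spike-in scaling. Names given below beyond the largest 4 changes of a list and the direct partners of the members were chosen after their values were seen.

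Chains that carry an ITAM, or the related motif of DAP10, included 5 of 7 tested genes that were higher, none lower, and a median of 0.77. The shares over everything tested were 38.5% higher and 21.4% lower. All 5 higher genes lie in the brightest bin, where 67.1% of features were called higher. Tyrobp and Fcer1g are 2 of those 5. Nfam1, an ITAM receptor of lymphoid and myeloid cells, was higher by 0.50, and Cd79b, a chain of the B cell receptor, by 0.36. Cd79b lost its call under 7 of 19 alternatives, 5 of them scalings, with a lowest difference of 0.053. Hcst, which encodes DAP10, was higher by 0.19 (adjusted p = 0.0431), but its sign turned under 5 of the other scalings. Cd79a at 0.78 and Cd3e at 0.77 did not pass (adjusted p = 0.0582 and 0.137), and Cd247, Cd3d, Cd3g and Ms4a2 were too dim to test. The count of higher genes was 3 under quantile normalization and 2 under spike-in scaling.

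Of 8 other Fc receptors and relatives tested, 1 was higher, 2 were lower and 5 neither, with a median of -0.22. The share of lower calls is near the 21.4% of everything tested, of which 38.5% were higher. Fcgrt, the neonatal receptor that recycles IgG inside cells, was lower by -0.84 (adjusted p = 0.00229), and Pigr, the carrier of polymeric immunoglobulin, by -1.17 (adjusted p = 0.00347). Fcrl5 was higher by 0.27 (adjusted p = 0.0477), with a sign that turned under 4 scalings. Fcer1a, the IgE-binding chain that uses Fcer1g, was at -0.06 and its groups overlapped.

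Receptors that signal through an ITAM chain, or an ITAM-like motif of their own, counted 5 of 15 tested higher and 4 lower, with a median of 0.03, against 38.5% and 21.4% of everything tested. Requiring signal above background on all 4 arrays left 10 genes, 2 of them higher and 3 lower, with a median of -0.06. Clec9a, a receptor for dead cells on dendritic cells, was at least 8.04-fold higher. Trem3 and Trem2, partners of DAP12, were at least 3.27-fold and at least 3.07-fold higher. These 3 were not well above background on any negative array, so they entered the test through the positive group alone. Each fold is a bound only against the dimmest signal above background on each negative array. That signal is not a detection limit. With normexp background correction, which compresses dim signals, their log2 differences were 1.75 for Clec9a, 0.996 for Trem3 and 0.78 for Trem2, below these bounds. Cd300lb, another DAP12 partner, rose 5.48-fold (adjusted p = 0.000979), and Cd300c2 rose by 1.06. The 4 lower genes were Pira2 (-1.81), Clec4e (-0.79), Cd300ld (-0.68) and Treml4 (-0.37), of which Cd300ld and Treml4 lost their calls under 2 and 3 of 19 alternatives. Clec4e encodes Mincle, a partner of the Fcer1g chain. The sequence-related Pir genes are uncertain, since their probes may not separate them.

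Of 10 tested in the Src, Syk and Tec families, 2 were higher, 1 was lower and 7 neither, Syk among the last. In the background 38.5% were higher and 21.4% lower. Zap70, the relative of Syk known from T cells, was higher by 0.97 (adjusted p = 0.00174), and the Tec kinase Bmx by 0.65 (adjusted p = 0.012). Lck was lower by -0.20 (adjusted p = 0.04). Bmx lost its call under 4 of 19 alternatives (adjusted p up to 0.116), and Lck under 6 (up to 0.189), among them leaving out any 1 array. Lyn, which phosphorylates the ITAM in myeloid cells, differed by 0.22 without passing (adjusted p = 0.195), and Fgr was too dim to test.

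Of 30 adaptors and enzymes below Syk, 11 were higher and 6 lower, with a median of 0.15, close to the 38.5% and 21.4% of everything tested and its median of 0.16. Card9, which carries the Syk signal to NF-kappaB, was higher by 1.88 (adjusted p = 0.00238), and Blnk, the adaptor of the B cell receptor, by 1.72 (adjusted p = 0.0012). The adaptor genes Gab3 and Lat were lower, by -1.33 and -1.23 (adjusted p = 0.00191 and 0.00171), as was Lcp2, which encodes SLP-76, by -0.96. Under spike-in scaling 3 were higher and 8 lower.

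Receptors with an ITIM, the group to which Fcgr2b belongs, counted 6 higher, 6 lower and 6 neither, with a median of 0.03. Everything tested had 38.5% higher and 21.4% lower. Where signal was above background on all 4 arrays, 5 were higher and 7 lower of 17, with a median of -0.09. Pdcd1, which encodes PD-1, was at least 3.52-fold higher, though its log2 difference was 0.80 with normexp. It was not well above background on either negative array, so it entered the test through the positive group alone. Cd5 was higher by 0.70. Pirb was lower by -1.59, or 3.0-fold (adjusted p = 0.00174), and belongs to the Pir family named above.

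Enzymes and adaptors that dampen the pathway counted 8 of 20 higher and 5 lower, with a median of 0.02. These shares are close to the 38.5% and 21.4% of everything tested. Inpp5d, the SHIP-1 phosphatase recruited by Fcgr2b, was higher by 0.23 (adjusted p = 0.0432), and Ptpn6, the SHP-1 phosphatase, by 0.32 (adjusted p = 0.0116). Both signs turned under quantile normalization, cyclic loess and the deposited matrix, so no direction can be given for either. Dok3 and Ubash3a were higher by 0.78 and 0.69. Sla2 and Socs3 were lower by -1.18 and -0.87, and 3 others, Dok2, Inppl1 and Ptpn22, by -0.66, -0.47 and -0.36. Inppl1 and Ptpn22 lost their calls without either negative array.

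Genes of actin remodelling and engulfment showed the largest share of higher calls among the lists with more than 10 tested genes. The count was 13 of 22 with 3 lower and a median of 0.34, against 38.5% and 21.4% of everything tested. Most of the 13 lie in the brightest bin, where 67.1% of features were called higher and 7.85% lower. The count also rested on the scaling. Under quantile normalization 2 were higher and 6 lower with a median of -0.03. Actr3, a subunit of the Arp2/3 complex, was higher by 0.77 (adjusted p = 0.0022), and the actin-severing gene Cfl1 by 0.57, a call lost under 3 of 19 alternatives. Myo10, Pld1 and Wasl were lower, by -0.66, -0.62 and -0.43, and Myo10 lost its call under 2 alternatives, with -0.00773 as its smallest difference.

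Complement receptors and opsonins, which share the task of marking targets for uptake, counted 3 higher and 3 lower of 11 tested, with a median of 0.04. The background held 38.5% higher and 21.4% lower. Itgax, the alpha chain of complement receptor CR4, rose 2.54-fold (adjusted p = 0.00143). Cd93 and C3 were higher by 0.68 and 0.59, the call of C3 being lost under 2 scalings. Cr2 was lower by -0.84, and Itgam, the alpha chain of CR3, by -0.52, a sign that turned when the probes of the gene were averaged. C1qc was at least 1.46-fold lower, a sign that turned under normexp correction. It was not well above background on either positive array, so it entered the test through the negative group alone.

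**Figure D4:**
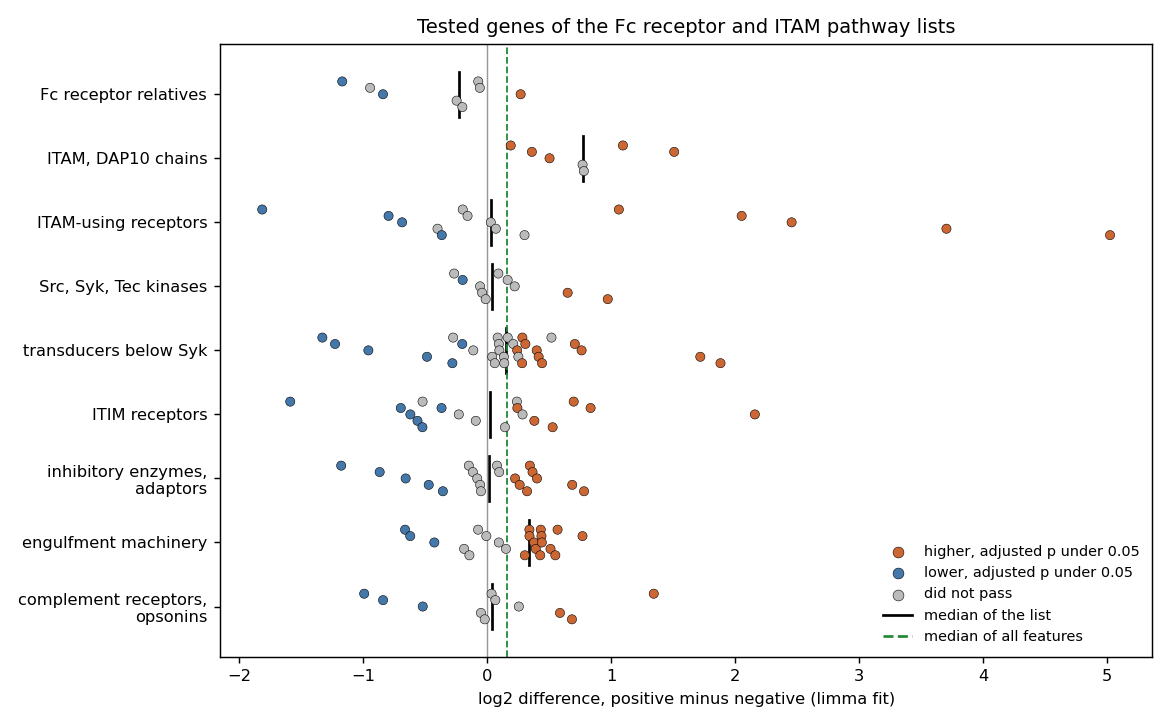
Log2 difference, positive minus negative, of each tested gene in the pathway lists, coloured by whether it passed the threshold, with the median of each list marked. The ITAM chains have the highest median at 0.77, other Fc receptors the lowest at -0.22, and the line of everything tested lies at 0.16.

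Markers of mature cells that express the members were read beside them, as sums of scaled signal. For monocytes and macrophages, 10 of 12 markers were on the array, and their sum was 8.13 and 7.94 on the negative arrays and 49.4 and 51.3 on the positive arrays. Most of that sum is Csf1r, the receptor for the macrophage growth factor, at 2.86 and 2.84 against 5.56 and 5.62 on the log2 scale. Of 5 markers tested, Csf1r, Ccr2 and Adgre1 were higher (by 2.74, 3.84 and 0.91), Marco was lower (by -0.30, a sign that turned under normexp), and Vcan at 0.13 did not pass. The shares over everything tested were 38.5% higher and 21.4% lower. Mertk, Mrc1, Clec4f and Vsig4 were not well above background on any array. The part of Csf1r, Ccr2 and Adgre1 in the result was not tested.

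The sum of 9 natural killer cell markers was 33.1 and 34.4 against 39.0 and 38.9, with Ncr1, Klrk1, Eomes and Klra8 not well above background on any array. Mast cell and basophil markers summed to 5.75 and 5.96 against 6.81 and 7.61, with Ms4a2, Mcpt4 and Cma1 not well above background. B cell markers, mostly Cd79b, summed to 12.1 and 11.5 against 15.3 and 14.9. Mature neutrophil markers summed to 1.28 and 1.25 against 1.03 and 1.17, but they did not move in 1 direction. Lcn2 was higher by 0.43 (adjusted p = 0.0158) and S100a9 lower by -1.11 (adjusted p = 0.00186). Cxcr2 at 0.75, Camp at -0.09 and S100a8 at -1.16 did not pass. Summed T cell markers were 24.0 and 23.6 against 23.0 and 22.4, red cell markers 16.3 and 17.4 against 10.69 and 11.2, and megakaryocyte and platelet markers 17.8 and 18.7 against 4.51 and 4.49. Dendritic cell markers had sums of 160.3 and 115 against 139 and 119, which overlap because Siglech, by far the brightest, overlaps. Of 6 tested, 4 were higher, Clec9a, Itgax, Batf3 and Bst2, and none was lower, with a median of 0.82. Clec9a was not well above background on either negative array. It entered this count and median through the positive group alone. Over all features 38.5% were higher and 21.4% lower. Bst2 lost its call under 8 of 19 alternatives, and the probes of Siglech disagreed, their mean being higher by 1.21. The part of natural killer, mast, B, neutrophil and dendritic cell markers in the result was not tested. Of the 6 genes of the sorting gate, 5 were well above background on every array, Slamf1 being the exception. Il7r, whose protein was gated out, was above background and 5.26-fold higher in the positive group (adjusted p = 0.000835). Ly6a, which encodes Sca-1, and Kit were lower there, by -0.96 and -0.39 (adjusted p = 0.00222 and 0.00769). Flt3 and Cd34 were higher, by 0.25 and 0.26 (adjusted p = 0.0257 and 0.0249).

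The genes whose arrays most resembled each member were found from the root mean square difference of centred log2 values over the 4 arrays. They were Lin54 and Cyc1 for Fcgr2b (0.00619 and 0.00856), Emc8 and Havcr2 for Fcgr3 (0.0259 and 0.0263), and Slurp2 and Ddo for Fcgr4 (0.0142 and 0.0181). Ccl9 and Plxnb2 were nearest to Fcer1g (0.00675 and 0.00835). Sdf2l1 and Camkv were nearest to Tyrobp (0.0145 and 0.0213), and Ahcyl2 and H2-Q2 to Syk (0.00485 and 0.00558). With 4 arrays, such likeness describes the size of a difference and its spread.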

How the data were processed

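Per the labels' protocols, cells were enriched by MACS and sorted by FACS, and total RNA was Cy3-labelled by low-input amplification. Per the file headers, 1-colour 8x60K arrays on 1 slide were quantified in Agilent Feature Extraction 10.7.3.1. The deposited processed signal is a background-subtracted spot intensity. The matrix the authors deposited holds linear intensity with the same sorted values on all 4 arrays (median 31.9), as quantile normalization gives. How it was centred is not stated.

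Outlier spots (0.174% to 0.233%) were dropped, and no spot was saturated. Spots of a probe were averaged. Log2 values minus the array's 75th percentile were computed from the deposited intensity. Of 55669 probes, 30478 were kept: at least 0.5 of the spots well above background on both arrays of 1 or both groups. Accessions were named through RefSeq (GRCm38.p6), which gave 26756 probes 1 symbol. The brightest kept probe stood for a gene.

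The fit was limma 3.58.1 in R 4.3.3 (lmFit, eBayes, no block), two-sided, with Benjamini-Hochberg adjustment over 22362 features and a threshold of 0.05. It was tested on simulated data. A fold against a group below background is a bound only against the lowest signal above it on each array. Some probes below background exceed that signal, as Fcgr1 did on the negative arrays (18.6 and 22.3 against 17.2 and 20.4). Precision is limited by 4 arrays.

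Members, lists and alternatives were chosen with earlier results of these data known. Named genes are the members, Irf8, up to 4 called genes with the largest change per list, the partners Lyn, Fgr, Inpp5d, Ptpn6 and Hcst, and the 2 nearest patterns of each member. Other names were chosen after their values were seen. Some genes that belong to these groups are not reported here. Red cell, platelet, T cell and dendritic cell markers were read too. Alternatives were 6 other scalings, normexp, other filters, eBayes trends, other probe rules, the replicate block and leaving out each array.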

Additional observations from a re-analysis of the deposited data

How the results depend on the processing

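Tyrobp, Fcer1g, Fcgr3 and Fcgr2b kept their direction and call under all 19 alternatives. Syk, not called, was lower by -0.40 under quantile normalization, -0.27 when centred on probes above background, -0.35 under spike-in scaling, -0.40 under cyclic loess and -0.41 in the deposited matrix, so 1 member was called lower under each of these. Fcgr4 passed under normexp (0.47, adjusted p = 0.00781), and leaving out single arrays gave 0.18 to 0.62. For the tested members, the other filters, eBayes trends, probe rules and the replicate block cannot alter the difference, only its p-value. Fcgr1, untested, had an adjusted p of 0.0779 without a filter. The causes were not tested.

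Features called higher, 8611, became 4382 (probes above background), 3299 (spike-in), 5303 (cyclic loess) and 14564 (no filter), and 4760 to 8002 without single arrays. Those called lower, 4779, became 7253 (probes above background) and 8099 (spike-in), and 2852 to 4772 without single arrays. The share of calls that were higher was 64.3%, against 52.6% (quantile), 37.7% (probes above background), 28.9% (spike-in), 46.7% (cyclic loess), 52.4% (matrix) and 76.9% (no filter). Of the pathway genes, the 51 higher became 29 (quantile and matrix), 25 (probes above background), 20 (spike-in) and 26 (cyclic loess), and 24 to 45 without single arrays. The 30 lower became 48 (probes above background) and 55 (spike-in).

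Signs turned as follows. Under quantile normalization, Fcrl5 was at -0.00551, Inpp5d at -0.15, Ptpn6 at -0.0332 and Hcst at -0.13. Under cyclic loess they were at -0.00937, -0.15, -0.0268 and -0.14, and in the matrix at -0.00693, -0.16, -0.0358 and -0.13. Under spike-in scaling Fcrl5, Inpp5d and Hcst were at -0.0375, -0.0822 and -0.12. With probes above background, Inpp5d was at -0.00844 and Hcst at -0.0438. C1qc and Marco were at 0.0111 and 0.0476 under normexp, and Itgam and Siglech at 0.0274 and 1.21 with averaged probes.

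The labels number the samples of each group alike without saying that equal numbers belong together. With the replicate block, 9094 features were higher and 4852 lower, and no member's call changed (adjusted p = 0.00946 to 0.0104 for the 4 called). The deviations of same-numbered samples correlated at 0.0971, a single value because 2 arrays a group mirror each other, which does not settle whether they share an experiment.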
